A study of Homo sapiens with 9 samples.

Results

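Imatinib, which blocks the tyrosine kinase KIT, was given to T1 cells at 50 nM, and the 3 imatinib libraries were compared with 3 libraries of the non-target control (siNC) across all genes. These 6 are of the 9 libraries in the series, and they were chosen by treatment label. T1, or GIST-T1, is a single human gastrointestinal stromal tumor (GIST) cell line with a KIT exon 11 deletion, described in the labels as sensitive to imatinib. Both groups received a non-target siRNA with a lipid reagent and were harvested at 48 h, so by label they differ by imatinib on a transfected background. No vehicle for the siNC libraries is named. The labels number the imatinib libraries apart from the siNC libraries, and no source states whether the groups were prepared and run together. Any such difference could not be told apart from imatinib. The remaining 3 libraries received siRNA against ESRRA (siERRα) and entered the same fit. PolyA RNA was sequenced in bulk, and no source states whether the 3 libraries of each group are separate cultures. The p-values therefore measure the spread between libraries, which may be technical.

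KIT sends its signal mainly through the RAS, RAF, MEK and ERK kinases and through PI3K and AKT. ERK switches on its own brakes (the DUSP phosphatases and the Sprouty and SPRED proteins) together with the ETS factors ETV1, ETV4 and ETV5, while AKT holds FOXO transcription factors out of the nucleus. In GIST, mutant KIT keeps both arms active without ligand, and most tumors depend on it.

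The 6 libraries held 37527236 to 49363002 counts, and 16976 genes passed the expression filter. Levels are given in CPM, library-size-normalised counts scaled by the TMM method, which do not allow for gene length and are compared only within a gene. A gene was called higher or lower at an adjusted p under 0.05 from the quasi-likelihood test of edgeR, and a DEG also differed by 0.5 or more on the log2 scale in either direction. Fold changes are imatinib minus siNC on the log2 scale, with the standard error (SE). The cells carried the GIST markers in every library, with KIT at 1272 to 1630.2 CPM, ANO1 at 375 to 626 CPM and ETV1 at 243 to 395 CPM. Leukocyte markers summed to 0.916 to 1.23 CPM in siNC and 1.16 to 1.22 CPM with imatinib, and PTPRC, the pan-leukocyte marker, had 1 count in 1 library and 0 in the others. Epithelial markers summed to 305 to 318 CPM in siNC and 196 to 226 CPM with imatinib. Most of it was KRT18, which stood at 291 to 303 CPM in siNC and 185 to 213 CPM with imatinib. CDH1, the defining cadherin of epithelium, was at most 1.02 CPM but rose within that low range (log2 fold change 1.24, SE 0.33, edgeR adjusted p = 0.00526). Its mean was 0.353 CPM in siNC and 0.831 CPM with imatinib. Of 6 epithelial markers tested, 2 were lower and CDH1 was the 1 called higher. In bulk RNA, fewer cells of a type and less RNA per cell cannot be told apart, here or in any list below.

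Imatinib moved a large part of the transcriptome in both directions. Of 16976 genes, 3627 were higher (21.4% of those tested) and 3445 were lower (20.3%), and 9904 were not called. The counts of every gene list below are to be read against these shares of 21.4% and 20.3%. The larger changes leaned upward, with 1797 DEGs higher (10.6%) and 1191 lower (7.02%), so that 60.1% of DEGs were higher. At the far end the balance turned, since 52 genes rose and 93 fell by at least 2 on the log2 scale. The median over all genes was 0.00, and in 98.5% of DEGs the 3 imatinib libraries did not overlap the 3 siNC libraries, against 52.0% of all genes tested. Protein-coding genes held 1540 DEGs higher and 848 lower of 12904 tested, whereas long non-coding RNAs leaned the other way, with 141 higher and 255 lower of 1926.

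**Figure D1:**
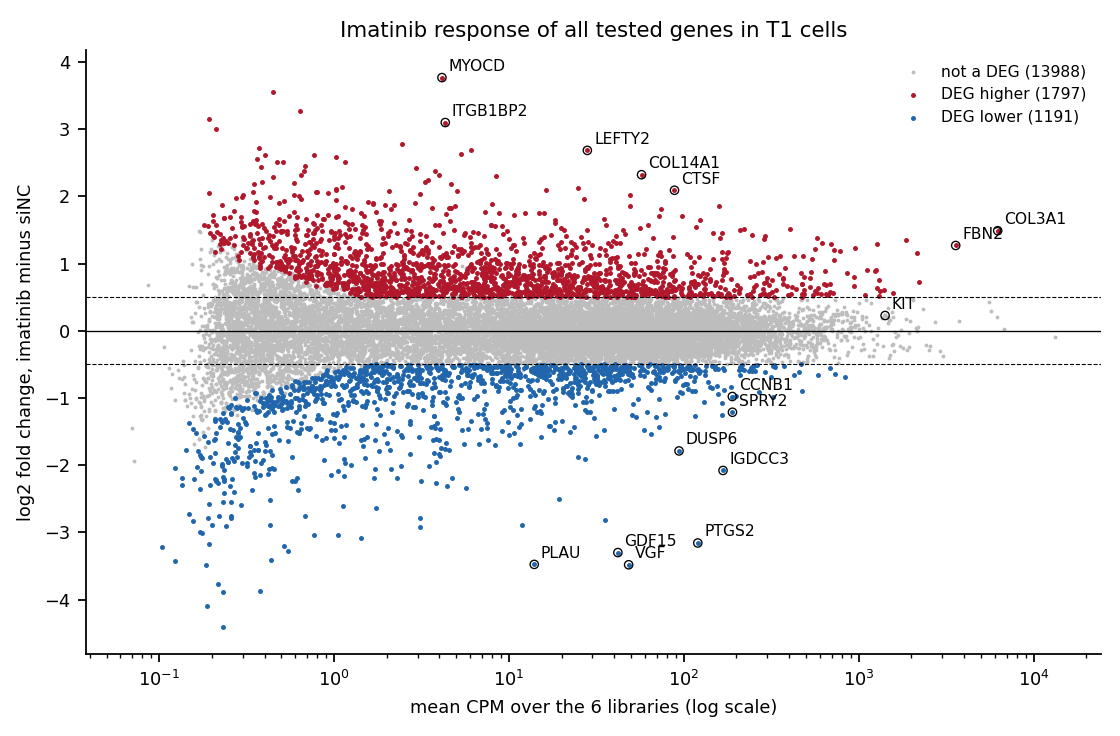
Each point is 1 of the 16976 tested genes, with the mean CPM over the 6 libraries on a log axis and the log2 fold change (imatinib minus siNC) on the other. The 1797 DEGs higher are red, the 1191 lower are blue, dashed lines mark 0.5 in either direction, and PTGS2, VGF, GDF15 and PLAU lie lowest among genes of at least 1 CPM while MYOCD lies highest.

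The kinases that imatinib binds were themselves little changed. KIT, on chromosome 4 of GRCh38 (annotation of GENCODE release 44) from 54657267 to 54740783, stood at 1314, 1272 and 1328 CPM in siNC and 1496, 1630.2 and 1452 CPM with imatinib. All 3 imatinib libraries lay above the siNC libraries, a modest rise (log2 fold change 0.23, SE 0.060, edgeR adjusted p = 0.00524). PDGFRB, the PDGF receptor beta, rose by 0.27, and DDR2, a collagen receptor kinase, by 0.34, while ABL2 fell (log2 fold change −0.59, SE 0.070, edgeR adjusted p = 1.66e-06). PDGFRA (−0.03), ABL1 (0.11), DDR1 (−0.11) and NQO2 (−0.06), the last an oxidoreductase that imatinib also binds, did not pass, and CSF1R was under the expression filter. ESRRA, the gene silenced in the siERRα libraries, stood at 40.7, 44.7 and 40.9 CPM in siNC and 30.4, 32.0 and 35.6 CPM with imatinib, and these groups did not overlap (log2 fold change −0.37, SE 0.093, edgeR adjusted p = 0.00383).

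ERK feedback and output genes fell almost as a block. Of 27 tested, 22 were lower and 1 was higher, with a median of −0.92 against 0.00 over all genes, and 19 of the 22 were DEGs. DUSP6, the phosphatase that dephosphorylates ERK in the cytoplasm, stood at 146, 145 and 147 CPM in siNC and 42.4, 39.6 and 44.4 CPM with imatinib. The libraries within each group lay close together and the groups were far apart (log2 fold change −1.79, SE 0.062, edgeR adjusted p = 1.74e-13). DUSP5, its nuclear counterpart, went from 39.1 ± 1.30 to 10.7 ± 1.55 CPM (mean ± SD, n = 3 each; log2 fold change −1.88, SE 0.086, edgeR adjusted p = 8.98e-12). SPRY2, a Sprouty inhibitor of receptor signaling, stood at 268, 264 and 262 CPM in siNC and 114, 109 and 119.9 CPM with imatinib, and SPRY4 at 344, 359.8 and 356 CPM in siNC and 198, 178 and 186 CPM with imatinib. Both fell in all 3 libraries (SPRY2 log2 fold change −1.21, SE 0.053, edgeR adjusted p = 4.57e-12, and SPRY4 log2 fold change −0.92, SE 0.055, edgeR adjusted p = 2.59e-10).

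The ETS factors ETV4 (−1.2) and ETV5 (−0.62), the SPRED proteins SPRED2 (−0.70) and SPRED3 (−1.65), the AP-1 subunit FOSL1 (−2.19), cyclin D1 (CCND1, −0.59) and PHLDA1 (−0.94) all fell. EGR1, an immediate early zinc finger factor, stood at 223, 233 and 239.8 CPM in siNC and 133, 66.5 and 91.6 CPM with imatinib. The imatinib libraries spread from 66.5 to 133 CPM yet stayed under every siNC library (log2 fold change −1.26, SE 0.23, edgeR adjusted p = 0.00289). Not every member fell, since SPRY1 (−0.02), DUSP7 (−0.10), EMP1 (−0.32) and MYC (0.19) did not pass and EPHA4 was the member called higher (0.14), a call lost under 9 alternatives. ETV1, the ETS factor of interstitial cells of Cajal, moved the other way from ETV4 and ETV5 and stood at 243, 244 and 255 CPM in siNC and 360.2, 395 and 332 CPM with imatinib (log2 fold change 0.55, SE 0.063, edgeR adjusted p = 1e-06).

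AP-1 and immediate early genes, which growth factor signals induce within minutes, were lower too. Of 26 tested, 20 were lower and 0 higher by edgeR (0 by unadjusted p at 0.05, by DESeq2 and by limma-voom), with a median of −0.74. ATF3, a stress-induced bZIP factor, stood at 32.9, 32.4 and 32.6 CPM in siNC and 5.15, 5.74 and 6.39 CPM with imatinib (log2 fold change −2.50, SE 0.086, edgeR adjusted p = 1.74e-13). MAFF, a small MAF protein, stood at 7.43, 7.30 and 7.42 CPM in siNC and 1.27, 1.10 and 2.10 CPM with imatinib (log2 fold change −2.30, SE 0.16, edgeR adjusted p = 2.51e-09). JUNB stood at 30.4, 35.5 and 32.0 CPM in siNC and 15.8, 13.6 and 16 CPM with imatinib (log2 fold change −1.11, SE 0.085, edgeR adjusted p = 6.89e-09). FOS (−1.23), FOSB (−1.54), JUN (−0.72), ZFP36 (−1.43) and DUSP1 (−0.96) fell as well, whereas JUND (0.09) and SRF (−0.06) did not pass. FOSL1 and EGR1 belong to both lists.

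The AP-1 site is the sequence that FOS and JUN dimers bind, and it was more frequent in the promoters of genes that fell. RefSeq promoter windows of GRCh38.p14, from 250 bases before to 50 bases after the start, were given for 11277 of the tested genes, with the first window listed used for each. TGACTCA, or its reverse complement TGAGTCA, was in 7.38% of the 786 windows of DEGs lower, 2.74% of the 1243 of DEGs higher and 2.93% of all windows. Seen from the motif, 17.6% of the 330 genes with it were DEGs lower against 6.65% of the 10947 without. A TATA box (TATAAA) was in 11.2% of the windows of DEGs lower, 6.03% of DEGs higher and 6.03% of all. The ETS site CCGGAAGT was in 2.09% of the windows of DEGs higher against 8.43% of all and 6.62% of DEGs lower. These matches describe the letters only and say nothing of binding. The 100 bases around the AP-1 site are shown for the 3 genes that fell most among DEGs of at least 1 CPM with the site, with the site in capitals on the strand of the gene: HSPA6, a stress-inducible HSP70 (chr1:161524354-161524453, plus strand, −2.81), SPHK1, sphingosine kinase 1 (chr17:76383151-76383250, plus strand, −2.27), and TNFSF15, a TNF family cytokine (chr9:114792598-114792697, minus strand, −1.79).
HSPA6: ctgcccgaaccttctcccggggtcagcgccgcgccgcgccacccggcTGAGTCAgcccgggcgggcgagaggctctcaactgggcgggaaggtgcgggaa
SPHK1: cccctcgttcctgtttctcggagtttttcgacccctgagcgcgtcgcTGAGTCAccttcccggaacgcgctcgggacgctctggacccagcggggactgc
TNFSF15: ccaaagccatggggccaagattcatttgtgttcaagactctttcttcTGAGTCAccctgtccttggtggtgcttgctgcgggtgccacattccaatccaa

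**Figure D2:**
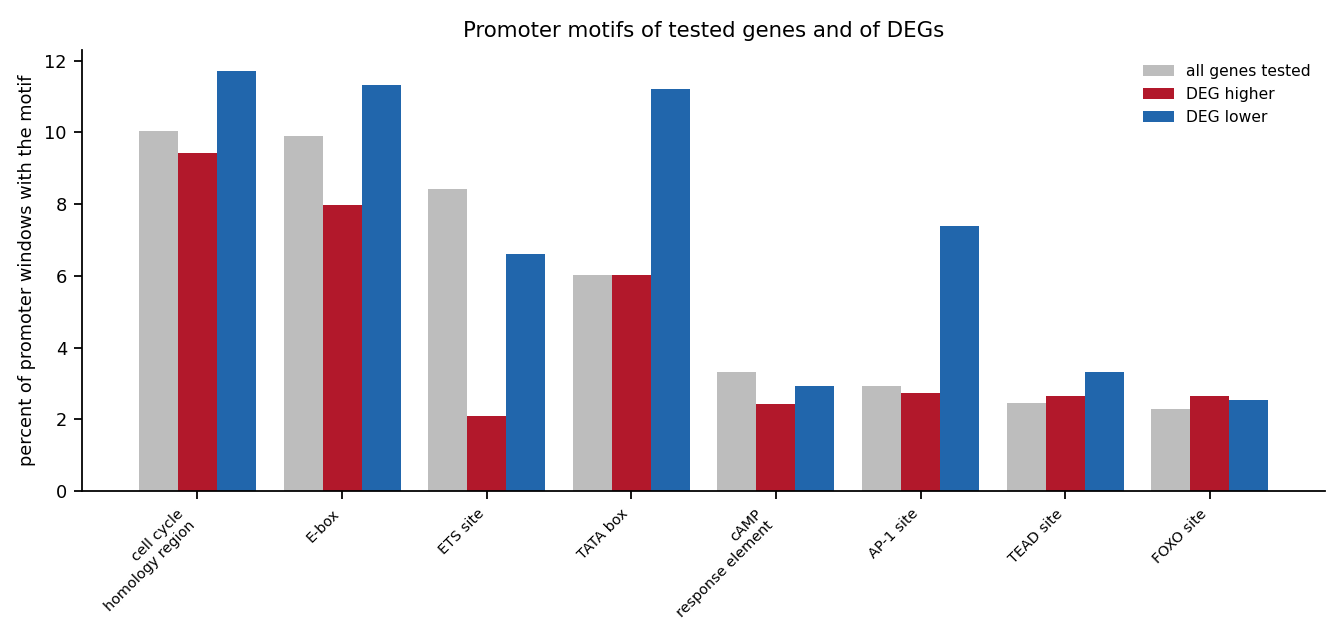
Percent of 300-base promoter windows that hold each motif on either strand, for the 11277 windows of tested genes (grey), the 1243 of DEGs higher (red) and the 786 of DEGs lower (blue). The AP-1 site stands at 7.38% and the TATA box at 11.2% in DEGs lower, against 2.93% and 6.03% of all windows, and the ETS site stands at 2.09% in DEGs higher.

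Among protein-coding genes averaging at least 1 CPM, several of those that fell most encode secreted proteins. PLAU, the urokinase plasminogen activator, stood at 25.3, 24.5 and 27.1 CPM in siNC and 2.44, 1.83 and 2.62 CPM with imatinib (log2 fold change −3.48, SE 0.11, edgeR adjusted p = 3.61e-14). VGF, a neuropeptide precursor, stood at 81.9, 95.5 and 88.7 CPM in siNC and 7.67, 6.31 and 9.84 CPM with imatinib (log2 fold change −3.48, SE 0.13, edgeR adjusted p = 3.41e-11). GDF15, a stress-induced TGFβ family hormone, stood at 73.9, 79.5 and 75.1 CPM in siNC and 7.70, 6.41 and 9.07 CPM with imatinib (log2 fold change −3.30, SE 0.10, edgeR adjusted p = 3.2e-14). Genes whose groups overlapped were left out of this ranking, so the lack of overlap here was a condition of it. PTGS2, the inducible cyclooxygenase COX-2, stood at 234, 193 and 221 CPM in siNC and 25.9, 21.2 and 25.5 CPM with imatinib (log2 fold change −3.16, SE 0.086, edgeR adjusted p = 1.55e-14).

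ARC (−3.08), SH2D5 (−3.04), the stromelysin MMP10 (−2.92), the protocadherin PCDH12 (−2.88), HSPA6 (−2.81), the cytokine LIF (−2.78), the proapoptotic BH3 protein HRK (−2.64), osteoprotegerin (TNFRSF11B, −2.60) and the activin subunit INHBA (−2.34) completed the 15 largest of these falls with ATF3 and MAFF. PLAU and LIF are also counted among the ERK output genes. IGDCC3, a cell surface immunoglobulin protein among the 10 genes with the smallest p, stood at 258, 281 and 273 CPM in siNC and 69.7, 54.6 and 67.9 CPM with imatinib (log2 fold change −2.08, SE 0.077, edgeR adjusted p = 4.12e-13). Of 18 tested cytokine, chemokine and NF-κB response genes, 11 were lower and 1 was higher (median −0.52). CCL2 (−1.17), RELB (−1.37), VCAM1 (−2.00) and IL6 (−0.52) fell, while NFKBIA (0.15) and NFKB1 (0.12) did not pass and SOD2 rose (0.30).

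**Figure D3:**
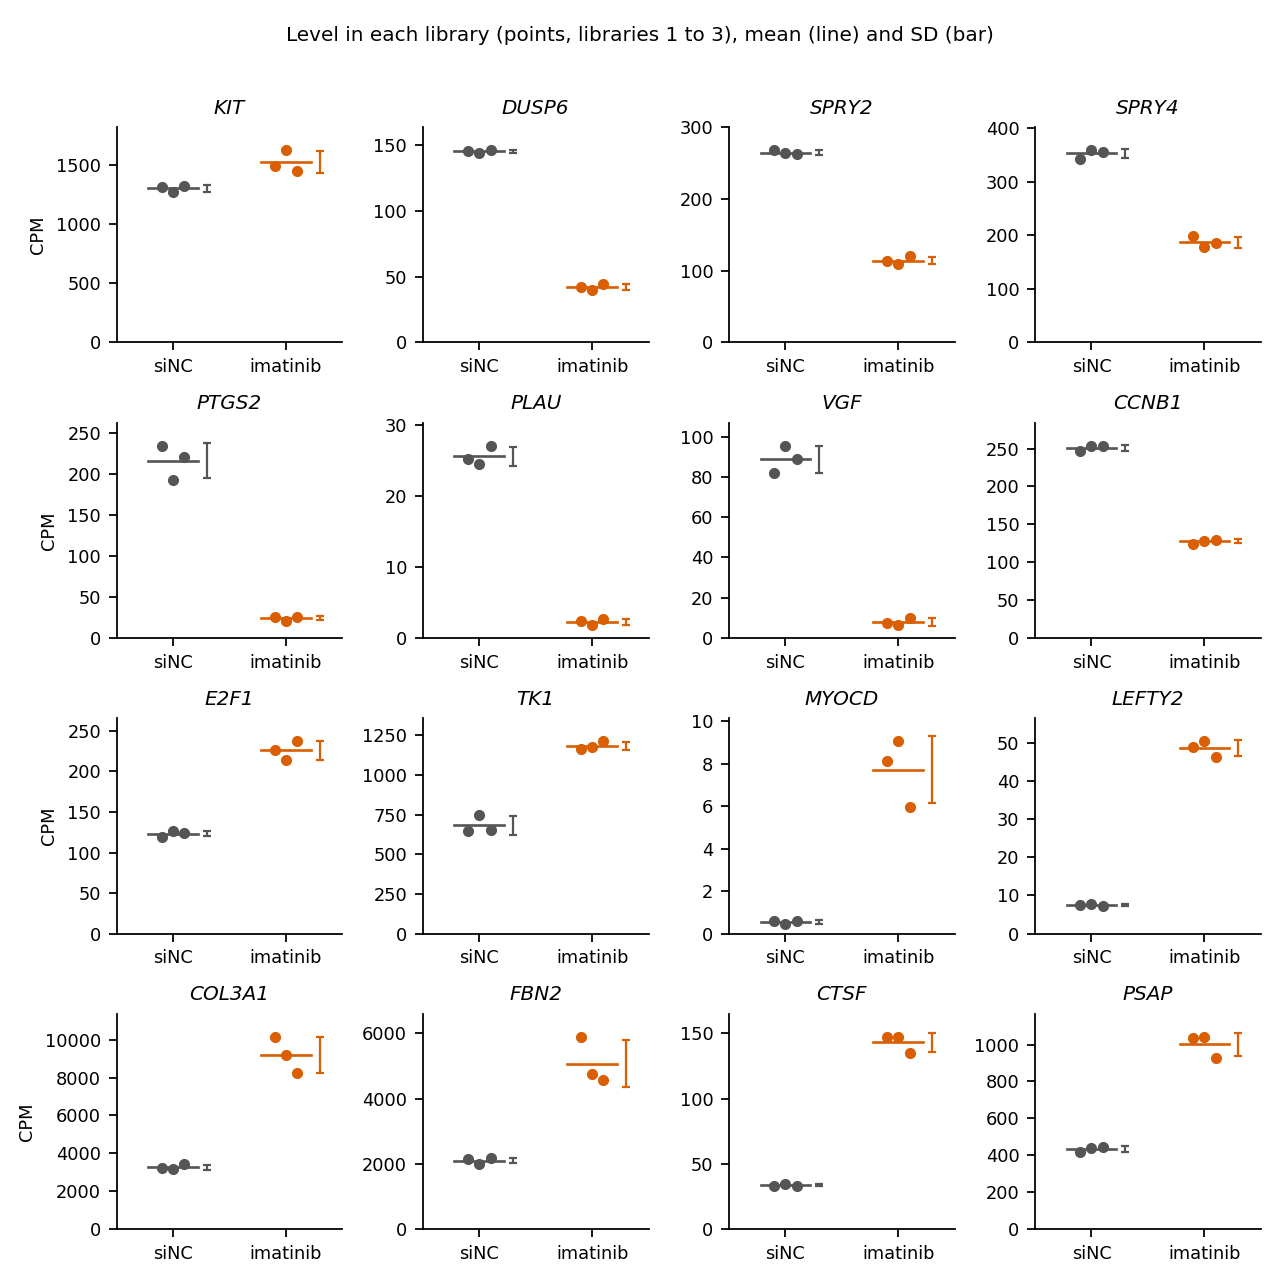
CPM of 16 genes in each siNC (grey) and imatinib (orange) library, with points for libraries 1 to 3, a line for the mean and a bar for the SD (n = 3), each axis starting at 0. The groups do not overlap in any of the 16 genes, which for PTGS2, PLAU, VGF, MYOCD and LEFTY2 was a condition of their choice. All 16 were picked for the plot with their values known, and 52.0% of all genes tested do not overlap. DUSP6, SPRY2, SPRY4, PTGS2, PLAU, VGF and CCNB1 are lower with imatinib and the other 9 higher.

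Genes of growth and protein production fell by smaller amounts but with few exceptions. Of 57 MYC and ribosome biogenesis genes, which make and assemble ribosomal RNA and precursors, 53 were lower and 1 was higher (median −0.47). RRP12, a ribosome export factor, stood at 80.2, 79.4 and 80.2 CPM in siNC and 44.2, 41.8 and 48.3 CPM with imatinib (log2 fold change −0.84, SE 0.064, edgeR adjusted p = 6.06e-09). DDX21 (−0.86), LYAR (−0.89), WDR43 (−0.75) and RRS1 (−0.97) fell by similar amounts, NHP2 (−0.08), FBL (−0.07) and CAD (0.12) did not pass, and UBTF rose (0.23). MYC itself stood at 5.26, 4.91 and 5.10 CPM in siNC and 6.02, 5.63 and 5.77 CPM with imatinib, a difference that did not pass (log2 fold change 0.19, SE 0.13, edgeR adjusted p = 0.249). Ribosomal protein genes did not follow, with 29 of 79 higher and 3 lower (median 0.12), although only 19 were higher without siNC replicate 3.

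The E-box CACGTG, which MYC and the TFE factors bind, was in 36.7% of the 49 windows of ribosome biogenesis genes against 9.91% of all windows. Of the 18 with it, 17 were lower (median −0.58), and of the 31 without, 28 were lower (median −0.41). The stretches of the 2 called lower with the smallest p that hold an E-box are shown with the motif in capitals. They are WDR43, a small subunit processome protein (chr2:28894617-28894716, plus strand), and PNO1, a ribosome assembly factor (chr2:68157838-68157937, plus strand, −0.81).
WDR43: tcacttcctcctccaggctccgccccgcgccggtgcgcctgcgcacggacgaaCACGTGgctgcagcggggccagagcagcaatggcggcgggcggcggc
PNO1: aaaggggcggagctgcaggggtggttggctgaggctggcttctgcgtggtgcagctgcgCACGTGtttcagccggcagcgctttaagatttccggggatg

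Most heat shock chaperone and proteasome genes were lower too. Of 22 heat shock chaperone genes, 20 were lower and 0 higher by edgeR (0 by unadjusted p at 0.05, by DESeq2 and by limma-voom), with a median of −0.46. HSPA1A, an inducible HSP70, stood at 166, 162 and 161 CPM in siNC and 72.1, 63.9 and 67.6 CPM with imatinib (log2 fold change −1.26, SE 0.066, edgeR adjusted p = 4.8e-11). HSPA1A and HSPA1B (−1.23) are near-identical copies between which reads may be split. HSPH1 (−0.66), BAG3 (−0.78) and DNAJB1 (−0.54) fell too, and HSF1, the factor that drives this group, did not pass (−0.11). Unfolded protein response and ER chaperone genes had no common direction, with 7 of 22 higher (31.8%) and 5 lower (22.7%, median −0.01). Over all genes tested the shares were 21.4% and 20.3%. Among the members, the protein disulfide isomerase PDIA4 (0.56) and the chaperone CALR (0.45) were higher and the stress sensor ERN1 (−0.58) lower. Of 34 proteasome genes, 31 were lower and 1 was higher (median −0.29), and the exception was PSME1 (0.61), an interferon-inducible cap subunit. Among 46 ATF4 and amino acid genes, 27 were lower and 9 higher (median −0.24), with the largest falls in DDIT3 (−1.71), the cystine transporter SLC7A11 (−1.48), the mTOR inhibitor DDIT4 (−1.01), the large neutral amino acid transporter chain SLC3A2 (−0.98) and TRIB3 (−0.86), while PHGDH, the entry enzyme of serine synthesis, rose (0.32). Of 28 splicing genes, 15 were lower and 0 higher by edgeR (0 by unadjusted p at 0.05, by DESeq2 and by limma-voom).

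**Figure D4:**
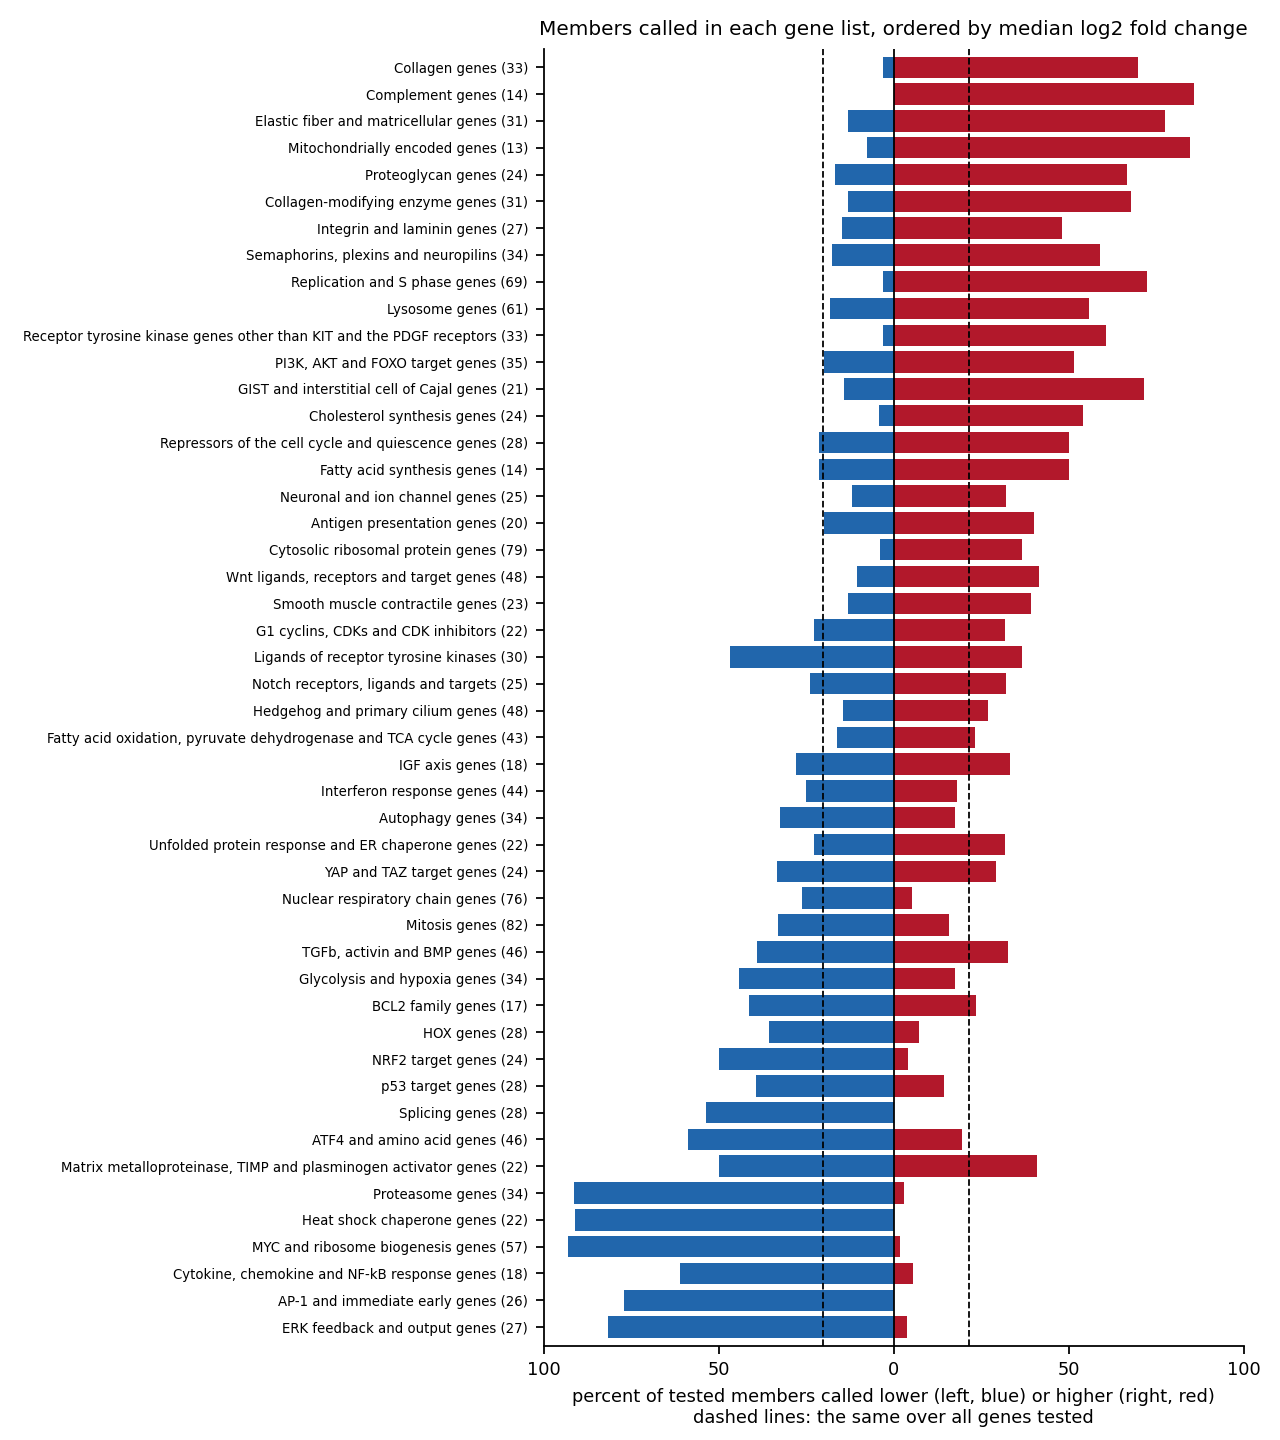
Each gene list with at least 12 tested members is shown, except the Hallmark epithelial-mesenchymal transition set. The bars give the percent of tested members called higher (red, to the right) and lower (blue, to the left). The number tested is in brackets and the lists are ordered by median log2 fold change. Dashed lines mark 21.4% higher and 20.3% lower over all genes tested. ERK feedback, AP-1, cytokine, ribosome biogenesis, heat shock and proteasome genes lie at the bottom and collagen, complement and elastic fiber genes at the top.

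The cell cycle lists parted. Of 69 replication and S phase genes, 50 were higher and 2 were lower (median 0.31), whereas of 82 mitosis genes 27 were lower and 13 higher (median −0.10). Without siNC replicate 1 or imatinib replicate 3, 6 and 7 mitosis genes were higher. CCNE2, cyclin E2, stood at 29.3, 27.6 and 30.5 CPM in siNC and 56.5, 54.7 and 56.9 CPM with imatinib (log2 fold change 0.94, SE 0.072, edgeR adjusted p = 6.14e-09). E2F1, the factor that drives entry into S phase, stood at 119.7, 126 and 124 CPM in siNC and 226, 215 and 237 CPM with imatinib (log2 fold change 0.87, SE 0.059, edgeR adjusted p = 1.41e-09). In both genes every imatinib library lay above every siNC library. TK1, thymidine kinase, rose by 0.80. E2F2 (0.67), MCM2 to MCM7 (0.28 to 0.59), PCNA (0.53) and CDT1 (0.51), of the replication machinery, rose as well. TIPIN (−0.41) and CCNA2 (−0.28), cyclin A2 of late S phase and G2, were the 2 that fell.

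The mitosis genes that fell included regulators of entry into mitosis and of exit from it. CCNB1, cyclin B1, stood at 247, 254 and 253 CPM in siNC and 125, 128 and 129.6 CPM with imatinib (log2 fold change −0.98, SE 0.056, edgeR adjusted p = 1.37e-10). CDC20, the activator of the anaphase-promoting complex, stood at 207, 243 and 213 CPM in siNC and 119, 109 and 133 CPM with imatinib (log2 fold change −0.88, SE 0.079, edgeR adjusted p = 5.7e-08), and PLK1, the polo-like kinase, at 120.3, 137 and 119.7 CPM in siNC and 76.4, 63.1 and 75.2 CPM with imatinib (log2 fold change −0.81, SE 0.076, edgeR adjusted p = 7.81e-08). AURKA (−0.70), CENPE (−0.65), PTTG1 (−0.62) and NEK2 (−0.61) fell with them. CDK1 (0.34), the partner of cyclin B1, and CDCA5 (0.37) rose, and TOP2A (−0.07), BUB1 (−0.08) and CCNB2 (−0.11) did not pass. MKI67 stood at 47.4, 45.7 and 58.3 CPM in siNC and 74.1, 33.1 and 46.9 CPM with imatinib, and these groups overlapped. Of 22 G1 cyclins, CDKs and CDK inhibitors, 7 were higher (31.8%) and 5 lower (22.7%, median 0.08). Over all genes tested the shares were 21.4% and 20.3%, so the list did not stand clearly apart. CCND1 (−0.59), E2F5 (−0.63) and CDKN1A, the p21 inhibitor (−0.69), fell. CDK2 (0.33), CDKN1B, the p27 inhibitor (0.27), and CDKN2C (0.49) rose. The MYC antagonist MXD4 rose by 0.62.

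The lists differed in promoter letters. The cell cycle homology region TTTGAA, an element of many late cell cycle promoters, was in 67.6% of the 68 windows of mitosis genes, 3.45% of the 58 of replication genes and 10.0% of all, on either strand. Within the mitosis list 12 of 46 genes with it were lower and 9 of 22 without. The E2F site TTTGGCGC was in 19.0% of replication windows against 1.05% of all. Of the 11 replication genes with it, 10 were higher (median 0.31), and of the 47 without, 30 were higher (median 0.28). The forms TTTCCCGC and TTTCGCGC were in 22.4% and 12.1% of replication windows against 2.54% and 1.01% of all. None of the motifs named here contains another. The stretches hold CDC20 (chr1:43358869-43358968, plus strand) and PLK1 (chr16:23678813-23678912, plus strand), the lower mitosis genes of smallest p with TTTGAA, and E2F1 (chr20:33686352-33686451, minus strand) and E2F2 (chr1:23531222-23531321, minus strand), the higher replication genes of smallest p with TTTGGCGC, each with its motif in capitals.
CDC20: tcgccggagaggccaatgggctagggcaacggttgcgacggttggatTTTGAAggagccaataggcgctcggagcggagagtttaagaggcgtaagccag
PLK1: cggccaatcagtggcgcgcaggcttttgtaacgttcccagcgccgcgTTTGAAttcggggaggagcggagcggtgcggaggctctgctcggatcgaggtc
E2F1: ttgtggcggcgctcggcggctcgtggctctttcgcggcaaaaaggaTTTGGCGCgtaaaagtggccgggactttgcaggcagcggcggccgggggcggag
E2F2: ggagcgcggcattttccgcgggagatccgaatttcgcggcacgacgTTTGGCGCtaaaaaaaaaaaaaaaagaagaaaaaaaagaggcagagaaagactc

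By the same conditions, the genes that rose most were led by MYOCD, myocardin, a coactivator of smooth and cardiac muscle genes. It stood at 0.604, 0.458 and 0.615 CPM in siNC and 8.13, 9.05 and 5.96 CPM with imatinib and thus went from a trace to a low level, 13.6-fold (log2 fold change 3.77, SE 0.21, edgeR adjusted p = 1.13e-10). ITGB1BP2, melusin, a muscle integrin-binding protein, stood at 0.873, 0.713 and 1.09 CPM in siNC and 7.75, 9.11 and 6.39 CPM with imatinib (log2 fold change 3.10, SE 0.19, edgeR adjusted p = 2.65e-10). LEFTY2, an inhibitor of Nodal signaling, stood at 7.61, 7.84 and 7.24 CPM in siNC and 49.0, 50.4 and 46.3 CPM with imatinib and was among the 10 smallest p of all genes (log2 fold change 2.68, SE 0.076, edgeR adjusted p = 1.55e-14). Lack of overlap between the groups was a condition of this ranking and is not a result for these genes. GNG7, a G protein subunit (2.78), RARB, the retinoic acid receptor beta (2.64), the potassium channel KCNK3 (2.22), the ectonucleotidase ENTPD2 (2.37), STON1 (2.42), C1QTNF7 (2.32), KLHL38 (2.30), MEGF6 (2.24) and the matrix genes COL23A1 (2.7), PODN (2.59), COL8A2 (2.50) and COL14A1 (2.32) made up the rest of the 15. Of 23 smooth muscle genes, 9 were higher and 3 lower (median 0.10), with LMOD1 (1.49), ACTG2 (1.32) and TAGLN (0.45) among the former, while CNN1 (−0.14) and MYH11 (−0.53) did not pass. HSPB7, a muscle small heat shock protein, stood at 44.3, 47.3 and 45.2 CPM in siNC and 146, 153 and 148 CPM with imatinib (log2 fold change 1.71, SE 0.062, edgeR adjusted p = 3.84e-13).

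Collagen genes had the highest median of all lists in the plot of list members. Of 33 collagen genes, 23 were higher and 1 was lower (median 1.11), and 22 of the 23 were DEGs. COL3A1, a fibrillar collagen, stood at 3223, 3177 and 3429 CPM in siNC and 10149, 9196 and 8235 CPM with imatinib (log2 fold change 1.49, SE 0.067, edgeR adjusted p = 6.75e-12). COL5A1, which nucleates collagen fibrils, stood at 102, 108 and 119 CPM in siNC and 397, 271 and 262 CPM with imatinib (log2 fold change 1.5, SE 0.14, edgeR adjusted p = 8.34e-06). In COL3A1 and COL5A1 imatinib replicate 1 was the highest library, and replicates 2 and 3 were still above every siNC library. COL6A1 (1.19), COL12A1 (1.38) and the basement membrane chains COL4A1 (1.11) and COL4A2 (1.39) rose, and COL9A1, a cartilage collagen, was the 1 that fell (−0.52). Genes that modify collagen followed, with 21 of 31 higher and 4 lower (median 0.40), with LOXL4 (1.86), ADAMTS2 (1.62), TLL1 (1.15) and LOXL1 (1.03) at the top and ADAMTS14 (−1.12) the lowest.

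Elastic fiber and matricellular genes rose in 24 of 31 and fell in 4 (median 0.90). FBN2, fibrillin 2, stood at 2137, 2004 and 2169 CPM in siNC and 5890.0, 4742 and 4570.2 CPM with imatinib (log2 fold change 1.27, SE 0.077, edgeR adjusted p = 2.86e-10), and ELN, elastin, at 694, 787 and 737 CPM in siNC and 1874, 1748 and 1804 CPM with imatinib (log2 fold change 1.29, SE 0.060, edgeR adjusted p = 1.07e-11). FN1, fibronectin, stood at 347, 329.6 and 383 CPM in siNC and 1160.4, 730.4 and 729 CPM with imatinib, so the groups were apart although imatinib replicate 1 lay well above the other two (log2 fold change 1.31, SE 0.18, edgeR adjusted p = 0.000467). FBLN1 (1.96), LTBP3 (1.46), MFAP4 (1.22) and SPARC (0.70) rose. The 4 that fell, TGFBI (−1.54), CCN2 (−0.69), CCN1 (−0.57) and THBS1 (−0.38), encode adhesive matricellular proteins. Of 24 proteoglycan genes, 16 were higher and 4 lower (median 0.54), with DCN, decorin (0.80), HSPG2, perlecan (1.5), and GPC3 (1.70) up. Of 27 integrin and laminin genes, 13 were higher and 4 lower (median 0.37). LAMA5, a laminin alpha chain, stood at 63.4, 72.1 and 70.9 CPM in siNC and 309, 212 and 223 CPM with imatinib, again highest in imatinib replicate 1 (log2 fold change 1.85, SE 0.12, edgeR adjusted p = 7.81e-08), and ITGA11, a collagen receptor, rose by 1.13, while ITGA6 (−0.75), ITGA9 (−0.62), ITGA1 (−0.50) and ITGA5 (−0.46) fell.

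Matrix proteases and their regulators moved in both directions. The metalloproteinases MMP10, MMP3 (−1.83) and MMP1 (−1.2) and urokinase (PLAU) with its receptor PLAUR (−0.90) fell, as did ADAM19 (−0.79), while MMP2 (0.66), MMP15 (1.23), TIMP2 (1.02) and the tissue plasminogen activator PLAT (0.43) rose. In all, 9 of 22 were higher and 11 lower (median −0.27). Complement genes, of which 12 of 14 were higher and 0 lower (median 1.01, 0 lower by unadjusted p at 0.05, by DESeq2 and by limma-voom), included the protease C1S at 34.7, 36.6 and 38.0 CPM in siNC and 84.1, 89.7 and 80.6 CPM with imatinib (log2 fold change 1.22, SE 0.072, edgeR adjusted p = 2.07e-10), its partner protease C1R (1.32), the inhibitor SERPING1 (1.40) and CLU (0.86). C4A and C4B are near-identical copies at low level and their values are uncertain.

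**Figure D5:**
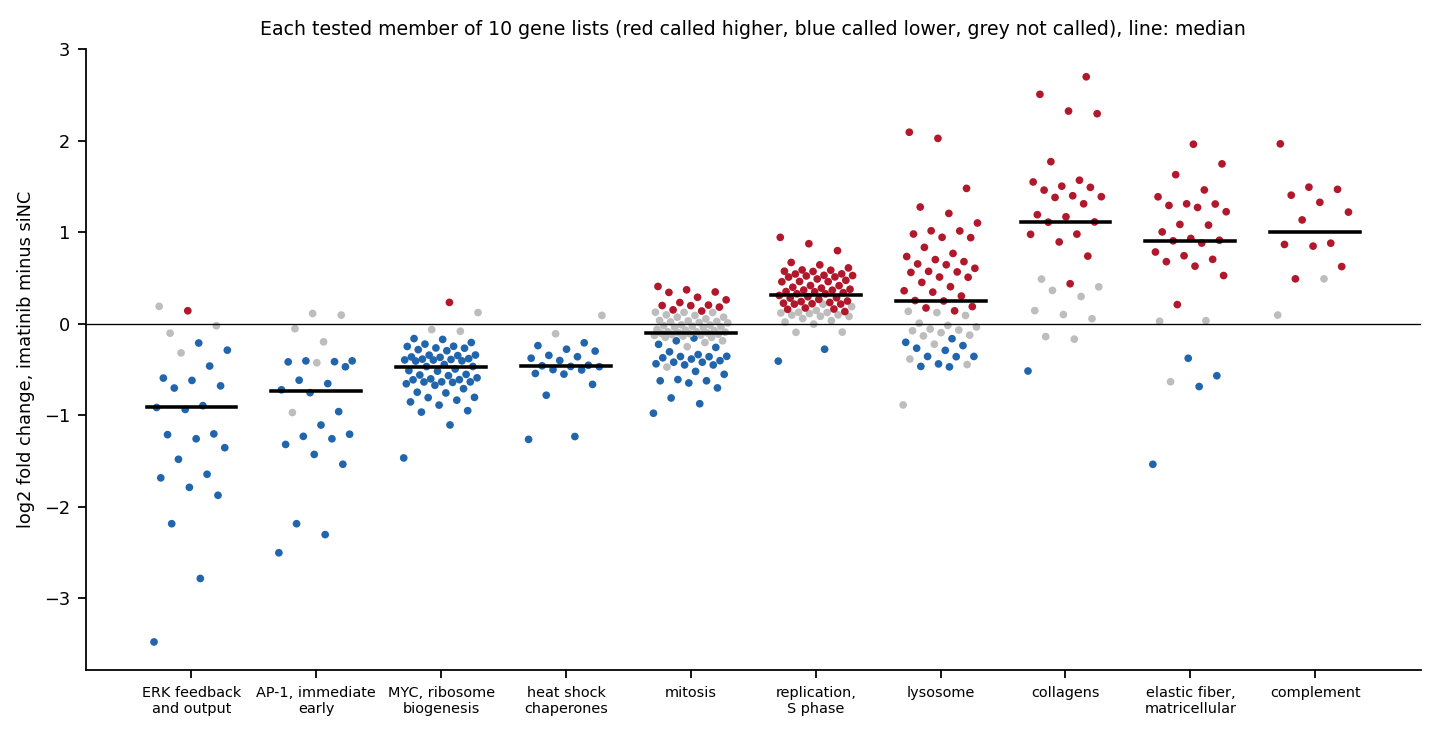
Log2 fold change (imatinib minus siNC) of each tested member of 10 gene lists, red where called higher, blue where called lower and grey where not called, with a black line at the median. The medians run from −0.92 for ERK feedback genes to 1.11 for collagens, the mitosis list straddles 0, and TGFBI stands alone at the bottom of the elastic fiber list.

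The genes of the Hallmark epithelial-mesenchymal transition set, which the study scored in these samples, were 95 higher and 42 lower of 170 tested (median 0.28), with 62 and 26 DEGs. Since the set was chosen by the study on these libraries, its direction is not independent evidence. Among its members, IGFBP3, a binding protein of insulin-like growth factors, stood at 1322, 1278 and 1226 CPM in siNC and 1444, 1367 and 1558 CPM with imatinib (log2 fold change 0.19, SE 0.061, edgeR adjusted p = 0.0169), a call lost without siNC replicate 3 (edgeR adjusted p = 0.0857) or imatinib replicate 3 (edgeR adjusted p = 0.106). NOTCH2 rose by 0.44 and PDGFRB by 0.27, whereas CDH11 did not pass (log2 fold change 0.05, SE 0.049, edgeR adjusted p = 0.417). The EMT transcription factors did not move as a group. Of 8 tested, 3 were higher and 2 lower (median 0.00). PRRX1 rose from 0.311 ± 0.116 to 1.29 ± 0.113 CPM (log2 fold change 2.06, SE 0.30, edgeR adjusted p = 1.72e-05), SNAI1 (−0.75) and ZEB1 (−0.37) fell, and the calls of SNAI2 (0.22) and TWIST1 (0.28) were lost under 12 and 7 of 15 alternatives.

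Lysosome genes were higher in 34 of 61 and lower in 11 (median 0.25), and all 24 of the DEGs among them were higher. CTSF, cathepsin F, stood at 33.0, 34.6 and 33.3 CPM in siNC and 147, 147 and 135 CPM with imatinib (log2 fold change 2.09, SE 0.061, edgeR adjusted p = 2.06e-14). GAA, the enzyme that degrades glycogen in lysosomes, stood at 17, 21.1 and 20.2 CPM in siNC and 93.2, 73.3 and 70.2 CPM with imatinib (log2 fold change 2.02, SE 0.11, edgeR adjusted p = 2.98e-10). PSAP, the precursor of the saposins that activate lipid hydrolases, stood at 418, 442 and 443 CPM in siNC and 1033, 1042 and 927 CPM with imatinib (log2 fold change 1.2, SE 0.058, edgeR adjusted p = 1.45e-11). All 3 were apart from siNC in every library. The hydrolases MAN2B1 (1.48), ARSA (1.27), TPP1 (1.10), GLB1 (1.01) and CTSD (0.94) and the membrane protein LAMP1 (0.65) rose, while the proton pump subunits ATP6V0B (−0.47) and ATP6V1B2 (−0.36) and the cholesterol exporter NPC1 (−0.47) fell. The E-box CACGTG was in 30.8% of the 39 lysosome windows against 9.91% of all windows. Of the 12 lysosome genes with it, 6 were higher and 2 lower (median 0.37). Of the 27 without, 14 were higher and 6 lower (median 0.14). Among factors that bind the E-box, TFEB (−0.13) did not pass, and MITF (−0.24) and TFE3 (−0.44) fell.

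On the PI3K and AKT arm, 18 of 35 PI3K, AKT and FOXO target genes were higher and 7 lower (median 0.23). ERBB3, a receptor kept low by active AKT, stood at 9.06, 8.5 and 9.49 CPM in siNC and 20.5, 18.8 and 18.3 CPM with imatinib (log2 fold change 1.09, SE 0.087, edgeR adjusted p = 1.14e-08), and INSR, the insulin receptor, at 11.3, 11.1 and 8.93 CPM in siNC and 20.5, 20.6 and 20.7 CPM with imatinib (log2 fold change 0.98, SE 0.096, edgeR adjusted p = 1.38e-07). PDK4 (2.07), FOXO6 (1.43), FBXO32 (0.97), the BH3 protein BCL2L11 (0.86), PINK1 (0.66), FOXO1 (0.68) and FOXO3 (0.59) rose. GADD45A (−1.36), GADD45B (−0.78), CDKN1A and IRS1 (−0.50) fell.

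Other receptor tyrosine kinases were mostly higher, 20 of 33 with 1 lower (median 0.24). EGFR stood at 181, 167 and 172 CPM in siNC and 330.3, 288 and 287 CPM with imatinib (log2 fold change 0.80, SE 0.064, edgeR adjusted p = 1.07e-08), and the ephrin receptor EPHB1 went from 1.99 ± 0.269 to 7.09 ± 0.407 CPM (log2 fold change 1.83, SE 0.14, edgeR adjusted p = 5.81e-09). EPHA7 (1.55), MET (1.15), RET (0.66) and ERBB2 (0.60) rose, FGFR2 fell (−0.19), and FGFR4 (−0.18), AXL (−0.65) and FLT1 (0.01) did not pass. Their ligands divided, with 11 of 30 higher and 14 lower (median 0.07). HBEGF (−1.36), VEGFA (−1.21), FGF2 (−0.70), TGFA (−0.54) and KITLG, the ligand of KIT itself, fell. KITLG stood at 91.0, 82.0 and 84.9 CPM in siNC and 49.2, 49.4 and 52.1 CPM with imatinib (log2 fold change −0.77, SE 0.068, edgeR adjusted p = 3.74e-08). PDGFD (1.56), NRTN (0.93) and GAS6 (0.71) rose.

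Of 21 tested genes of GIST and interstitial cells of Cajal, 15 were higher and 3 lower (median 0.23). ANO1, the chloride channel used to diagnose GIST, stood at 375, 385 and 392 CPM in siNC and 626, 569.7 and 560.4 CPM with imatinib (log2 fold change 0.61, SE 0.054, edgeR adjusted p = 4.29e-08). PRKCQ (0.73), DPP10 (0.89), GPR20 (0.45) and HAND1 (0.43) rose with it, as did KCNK3 (2.22). The 3 that fell were KITLG (−0.77), the only DEG among them, CD34 (−0.37) and FOXF1 (−0.15).

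Wnt genes leaned upward, while TGFβ and Notch genes moved in both directions. Among 48 Wnt genes 20 were higher (41.7%) and 5 lower (10.4%, median 0.11), against 21.4% and 20.3% over all genes tested. CTNNB1, β-catenin, stood at 882, 885 and 868 CPM in siNC and 1048, 1112 and 1039.6 CPM with imatinib (log2 fold change 0.28, SE 0.051, edgeR adjusted p = 0.00019), and AXIN2, a feedback target, went from 13.9 ± 0.908 to 22 ± 1.74 CPM (log2 fold change 0.66, SE 0.082, edgeR adjusted p = 3.05e-06). WNT11 (0.66), SFRP1 (0.85) and FZD1 (0.63) rose, and FZD6 (−0.90), FZD4 (−0.55) and WNT5A (−0.55) fell. With siERRα the log2 differences from the same siNC libraries were −1.17 for CTNNB1, −0.57 for AXIN2 and 1.07 for FZD6 (edgeR adjusted p = 2.31e-11, 6.48e-05 and 3.85e-09). These share their control libraries with the imatinib values, and the direct differences of imatinib minus siERRα were 1.45, 1.22 and −1.97 (edgeR adjusted p = 1.55e-13, 6.66e-10 and 3.11e-13).

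Of 46 TGFβ, activin and BMP genes, 15 were higher (32.6%) and 18 lower (39.1%, median −0.11). The ligands INHBA (−2.34), TGFB2 (−0.89) and TGFB1 (−0.35) and the receptor TGFBR2 (−0.50) fell. FST, follistatin, which binds activin, stood at 32.1, 31.9 and 30.0 CPM in siNC and 88.9, 99.3 and 92.0 CPM with imatinib (log2 fold change 1.58, SE 0.066, edgeR adjusted p = 2.12e-12). Of 25 Notch genes, 8 were higher (32%) and 6 lower (24%), against 21.4% and 20.3% over all genes tested (median 0.07). With siNC replicate 1 left out, 5 were higher, so the list did not stand clearly apart from all genes. The ligands JAG1 (log2 fold change −1.29, SE 0.062, edgeR adjusted p = 1.45e-11), DLL4 (−1.11) and DLL1 (−0.95) and the target HES1 (−0.78) were lower. The receptors NOTCH2 (0.44) and NOTCH3 (0.60) were higher.

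Mitochondrially encoded transcripts took 0.925% ± 0.0726 of the counts in siNC and 1.52% ± 0.0359 with imatinib (SD, n = 3 each). Of 13 genes 11 were higher and 1 was lower (median 0.75), and MT-ND3 was the 1 that fell (−0.14). MT-CO1, a cytochrome oxidase subunit, stood at 909, 1097 and 1131 CPM in siNC and 2628, 2730.1 and 2618 CPM with imatinib (log2 fold change 1.35, SE 0.071, edgeR adjusted p = 5.8e-11). The part of this shift in other results was not tested, but with these genes left out 1785 DEGs were higher and 1191 lower. Among nuclear genes of the respiratory chain, 4 of 76 were higher and 20 lower (median −0.06). Glycolysis and hypoxia genes were higher in 6 of 34 and lower in 15 (median −0.15), with the glucose transporter SLC2A3 (−1.5), hexokinase 2 (HK2, −0.80) and VEGFA falling. Cholesterol synthesis genes were higher in 13 of 24 and lower in 1 (median 0.22), led by the sterol reductase TM7SF2, which stood at 16, 19.0 and 15.4 CPM in siNC and 48.7, 57.5 and 53.5 CPM with imatinib (log2 fold change 1.67, SE 0.097, edgeR adjusted p = 1.76e-10).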

How the data were processed

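Bulk polyA RNA of T1 cells was sequenced as paired reads, and the deposited values are whole-number counts per gene, which the authors made with STAR 2.7.3a and featureCounts 2.0.1 on GRCh38 per the labels and methods. No source names the annotation release or the strand setting, so overlapping and antisense genes may share counts. Library totals were 37527236 to 49363002, and intervals from counts would cover counting error only. From these counts, edgeR 4.0.16 (R 4.3.3) was run on all 9 libraries in 1 fit after filterByExpr (minimum count 10, minimum total 15), with TMM scaling, the robust quasi-likelihood test, the contrast imatinib minus siNC and Benjamini-Hochberg adjustment over 16976 genes. The thresholds, an adjusted p under 0.05 and for a DEG an absolute log2 fold change of 0.5, follow the study, whose own tool was DESeq2. Gene types and positions came from GENCODE release 44 and promoters from RefSeq.

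Genes were named by rule: imatinib's target kinases and ESRRA, 4 genes that the study names for imatinib, the 15 protein-coding DEGs with the largest change in each direction (average of at least 1 CPM, no overlap), the 5 non-coding DEGs of each kind, up to 6 members of each list by p, the 10 smallest p of all, and any gene at 0 in every library of 1 group with an average of at least 0.5 CPM in the other. Other genes named were chosen after their values were seen, and a few results are not reported here. The members and lists were chosen with earlier results of these data known, and many lists share members. On simulated counts, 84% of 100 genes changed by 0.5 and 96% of 100 changed by 1 on the log2 scale were called, and 0.104% of 16341 unchanged genes. The changed genes were drawn only from those over 1 CPM in siNC, so these rates do not cover lower genes. Far fewer genes were changed there than were called in the data. The alternatives were DESeq2 1.42.0 size factors and test, limma-voom (limma 3.58.1), no filter, at least 10 counts in every library, the 6 libraries alone, thinned counts, a replicate block, mitochondrial genes left out, each library left out and a fold threshold of 1.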

Additional observations from a re-analysis of the deposited data

How the results depend on the processing

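The counts of DEGs kept their order under every alternative, with more higher than lower. Across the alternatives other than the fold threshold they stayed within 1.5 times the reported 1797 higher and 1191 lower, and 82.4% to 100% of the reported DEGs were shared. A fold threshold of 1 left 579 higher and 421 lower. Leaving out each library in turn gave 1615 to 1793 DEGs higher, 1084 to 1200 lower, 2970 to 3396 genes called higher and 2824 to 3258 called lower. Of the 338 genes named by rule, none changed direction where the main fit or the alternative called it. Changes of sign in genes called in neither fit were not counted. Calls close to the threshold were lost in places, among them SNAI2, TWIST1 and IGFBP3.

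The library columns carry numbers 1 to 3 in each group. Same-numbered libraries did not deviate together, with correlations of −0.00507, −0.0679 and −0.0251, so the numbers were not taken as pairs. A replicate block gave 1779 DEGs higher and 1180 lower.

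The limits are 3 libraries per group of 1 cell line, 1 dose and 1 time, with no source saying that libraries came from separate cultures. Nor does any source say that the groups were prepared and run together, and such a difference could not be told apart from imatinib. Only 16.6% of the 3655 genes under 1 CPM were called, against 57.2% of the 2329 over 100 CPM, and changes in low genes were the least detectable at this depth.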

Other observations

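Of 34 semaphorin, plexin, neuropilin and related guidance genes 20 were higher and 6 lower (median 0.35), with SEMA3B (1.42), SEMA6C (1.41), SLIT3 (1.18) and NTN1 (1.08) higher and SEMA7A (−0.98) and the netrin receptor UNC5B (−0.81) lower. Of 20 antigen presentation genes 8 were higher (40%) and 4 lower (20%, median 0.13), the latter near the 20.3% over all genes tested. The class I genes HLA-B (0.73) and HLA-C (0.82) rose, although reads of these paralogs may be shared. The peptide transporter TAP2 (−1.01) and the class I coactivator NLRC5 (−0.97) fell, and B2M did not pass (0.15). Interferon response genes were called about as often as all genes tested (21.4% higher and 20.3% lower), with 8 of 44 higher and 11 lower (median 0.01, and 7 lower without siNC replicate 1, siNC replicate 2 or imatinib replicate 1), IFI6 (1.00) at one end and IFI44 (−1.12) at the other. Of 28 HOX genes 2 were higher (7.14%) and 10 lower (35.7%, median −0.16), among the latter HOXB9 (−1.07), HOXA3 (−0.78) and HOXD13 (−0.75).

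Of 28 p53 target genes 4 were higher (14.3%) and 11 lower (39.3%, median −0.18). FAS (−1.17), PLK3 (−1.31) and the TRAIL receptor TNFRSF10B (−0.86) were lower and PHLDA3 was higher (0.89). In the BCL2 family 4 of 17 were higher (23.5%) and 7 lower (41.2%), against 21.4% and 20.3% over all genes tested (median −0.15). BCL2L11 (0.86), BNIP3L (0.52) and BMF (0.44) were higher and HRK (−2.64) and PMAIP1 (−0.87) lower. The survival proteins MCL1 (−0.31) and BCL2L1 (−0.24) fell slightly. Of 24 NRF2 target genes 12 were lower (50%) and 1 was higher (4.17%, median −0.18). Among non-coding transcripts, the largest rises were in GAS2L1P2 (2.07), TRMT61A-DT (2.07) and LINC03013 (1.88), and the largest falls in ENSG00000251600 (−2.19), KIAA0087 (−2.16) and ENSG00000286069 (−2.06). MTCYBP18 (1.71) and MTCO1P2 (1.63), nuclear copies of mitochondrial genes, rose together with MT-CYB (1.06) and MT-CO1 (1.35) and may share reads with them.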
